A study of Homo sapiens with 6 samples.

Results

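The RNA of the 6 genes that encode protein kinase A was measured in T24 and UM-UC-3, established human bladder cancer cell lines. The genes are the regulatory subunits PRKAR1A, PRKAR1B, PRKAR2A and PRKAR2B and the catalytic subunits PRKACA and PRKACB, taken by name and joined by Ensembl identifier from 19945 genes listed for both lines. The set was chosen by the CPM ratios to control of PRKAR1B, which was over 2-fold higher than the control of its line in all 4 siRNA libraries; all 6 genes were listed in both lines, and all 6 passed the filter of a mean of at least 1 CPM, where CPM scales the reads of a gene to the gene-assigned reads of its library.

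Cells of each line received a negative control or 1 of 2 siRNAs (siRNA-1, siRNA-2; 0.04 OD for 48 h), and each combination gave 1 RNA sequencing library, so that 6 libraries formed 4 groups of line by control or siRNA. HSF1, the heat shock transcription factor, is named in the series title and in column headers of UM-UC-3, and the labels themselves give no target. The labels do not say whether the control was itself an siRNA, nor whether separate cultures were used, so that p-values speak for the spread between these libraries alone. In fits of siRNA against control within a line, that spread came only from the siRNA libraries, which received separate reagents. The siRNA-1 minus siRNA-2 differences correlated between the lines at 0.417 across genes, so part of the spread was shared by both lines. A technical part cannot be told apart from it. Each control is a single library, which every comparison of siRNA with control within its line shares. The line cannot be told apart from any batch in which its libraries were handled. In such bulk RNA, fewer cells of a type and less RNA per cell cannot be told apart.

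Library totals were 23709089 to 28504833 assigned reads, so 1 read was worth 0.0351 to 0.0422 CPM. HSF1 stood at 106 CPM in the T24 control, 20.3 beside siRNA-1 and 22.7 beside siRNA-2, against 138, 50.3 and 36.5 CPM for UM-UC-3. The keratins KRT8 and KRT18, which mark simple epithelia, were read in every library, KRT8 at 492 to 795 CPM in T24 and at 24.2 to 29.1 CPM in UM-UC-3. Of the markers of differentiated urothelium, UPK1A was at or below 0.403 CPM and UPK2 at or below 0.112 CPM in all 6 libraries, and GATA3 was at or below 1.16 CPM. PPARG, a urothelial regulator, was read at 5.75 to 16.1 CPM in T24 and at 1.36 to 2.42 CPM in UM-UC-3. EPCAM, CDH1 and UPK1B were listed for T24 alone, at no more than 0.253 CPM, KRT19 for UM-UC-3 alone, at no more than 0.240 CPM, and KRT5 and UPK3A for neither line.

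Protein kinase A is the main intracellular receptor of cyclic AMP. A dimer of regulatory subunits holds a pair of catalytic subunits inactive, and cyclic AMP binding to the regulatory subunits frees the kinase. Type I regulatory subunits (PRKAR1A, PRKAR1B) are largely cytosolic, whereas type II subunits (PRKAR2A, PRKAR2B) are mostly held at membranes and organelles by A-kinase anchoring proteins. Loss of PRKAR1A, the widely expressed form, causes Carney complex, and PRKAR1B is best known from brain. In the umbrella cells of the bladder, cyclic AMP signalling is known to promote delivery of membrane vesicles to the apical surface.

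For each type I gene 1 promoter window is shown, because these are the subunits that were higher in every siRNA library. Each shown window holds the letters marked in it, as does another window of the same gene, and the remaining windows of that gene lack them, as counted below. Sequences are RefSeq windows on GRCh38.p14, from 250 bases before to 50 bases after an annotated start, written 5′ to 3′ on the strand of the gene. Capitals mark the cyclic AMP response element TGACGTCA in PRKAR1A (chr17:68512129-68512428, plus strand), which begins 2 bases past the start, and the shorter core TGACG, read on the other strand as CGTCA, in PRKAR1B (chr7:713092-713391, minus strand), 34 bases past the start.
PRKAR1A: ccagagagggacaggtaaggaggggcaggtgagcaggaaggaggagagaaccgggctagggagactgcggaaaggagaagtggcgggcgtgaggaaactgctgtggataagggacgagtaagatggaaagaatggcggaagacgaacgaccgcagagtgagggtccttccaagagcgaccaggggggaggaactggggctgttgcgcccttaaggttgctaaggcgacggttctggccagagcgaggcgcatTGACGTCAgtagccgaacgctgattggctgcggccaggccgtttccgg
PRKAR1B: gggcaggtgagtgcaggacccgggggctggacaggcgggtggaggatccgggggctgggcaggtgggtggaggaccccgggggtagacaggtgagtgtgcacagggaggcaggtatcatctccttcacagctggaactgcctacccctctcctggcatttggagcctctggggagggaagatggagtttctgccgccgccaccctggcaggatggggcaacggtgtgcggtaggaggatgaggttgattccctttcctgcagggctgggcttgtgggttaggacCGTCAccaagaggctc
Both strands of all 20 windows annotated for the 6 genes were searched. TGACGTCA, which holds TGACG on either strand, was in 2 of 5 windows of PRKAR1A and in none of the other subunits, against 1.85% of 35116 RefSeq windows. TGACG was in 4 of 5 windows of PRKAR1A, 2 of 6 of PRKAR1B, 1 of 1 of PRKAR2A, 0 of 1 of PRKAR2B, 1 of 2 of PRKACA and 1 of 5 of PRKACB, against 24.6% of all windows. Heat shock element letters were searched as paired units: GAANNTTC was in no subunit window (6.77% of all windows), and TTCNNGAA was in 1 of 5 windows of PRKAR1A and 1 of 5 of PRKACB (7.74%). Windows of 1 gene can overlap, so these counts are not independent, and a match is a description of the letters alone.

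PRKAR1A had the most RNA per exon length of the 6 subunits in every library, and PRKAR1B made up a larger share of the regulatory RNA in the siRNA libraries than in the controls. The rise of PRKAR1B chose the set, so its larger share, its rank and part of any rise in the regulatory sum follow from that choice. Levels of different genes were compared as CPM per kb of the union of annotated exons. On that scale PRKAR1A stood at 52.2, 76.0 and 72.3 CPM per kb in T24 (control, then each siRNA), and at 30.1, 41.5 and 40.7 in UM-UC-3 in the same order. PRKAR1B stood at 7.13, 21.5 and 16.7 CPM per kb in T24 and at 1.09, 2.94 and 2.86 in UM-UC-3. PRKAR1B thus ranked 4 of the 6 subunits in the T24 control, 2 and 3 in the T24 siRNA libraries, 6 in the UM-UC-3 control and 5 with either siRNA there.

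PRKAR2A, the widely expressed type II form, stood at 10.7 to 22.9 CPM per kb in T24 and 11.3 to 17.4 in UM-UC-3. PRKAR2B, the type II form known from fat and brain, was the lowest subunit in every library but the UM-UC-3 control, where PRKAR1B was lower. It stood at 0.38 to 1.19 CPM per kb in T24 and at 1.60 to 2.77 in UM-UC-3. Of the catalytic subunits, PRKACA stood at 7.50 to 10.7 and PRKACB at 3.11 to 7.68 CPM per kb in T24. In UM-UC-3, PRKACA stood at 7.49 to 8.69 and PRKACB at 4.87 to 5.72 CPM per kb. PRKACA was the higher catalytic subunit in 5 of 6 libraries, and in T24 siRNA-2 it made up 49.4% of their sum. With the longest annotated transcript as the length it made up 56.4% there and was the higher one in all 6 libraries, and PRKAR1B then ranked 3, 2 and 2 in T24.

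PRKAR1B made up 9.82%, 19.8% and 14.8% of the summed regulatory level per kb in T24 (control, then each siRNA). Its share in UM-UC-3 was 2.31%, 5.12% and 4.53%. PRKAR1A kept 63.9% to 72.3% of that sum across all 6 libraries. Both type I subunits together made up 81.7%, 89.8% and 78.7% in T24 and 66.2%, 77.5% and 68.9% in UM-UC-3, so that the type I share was above its control with siRNA-1 in both lines, below it with siRNA-2 in T24 and above it with siRNA-2 in UM-UC-3. The summed regulatory level divided by the summed catalytic level was 4.74, 7.85 and 7.45 in T24 and 3.78, 4.23 and 4.59 in UM-UC-3, lowest in the control of each line. With the longest annotated transcript as the length these ratios ran from 2.97 to 6.54, and PRKAR1A was still the first subunit in all 6 libraries. These are shares of RNA and not of protein, and with 1 library per combination they have no replicate error.

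**Figure D1:**
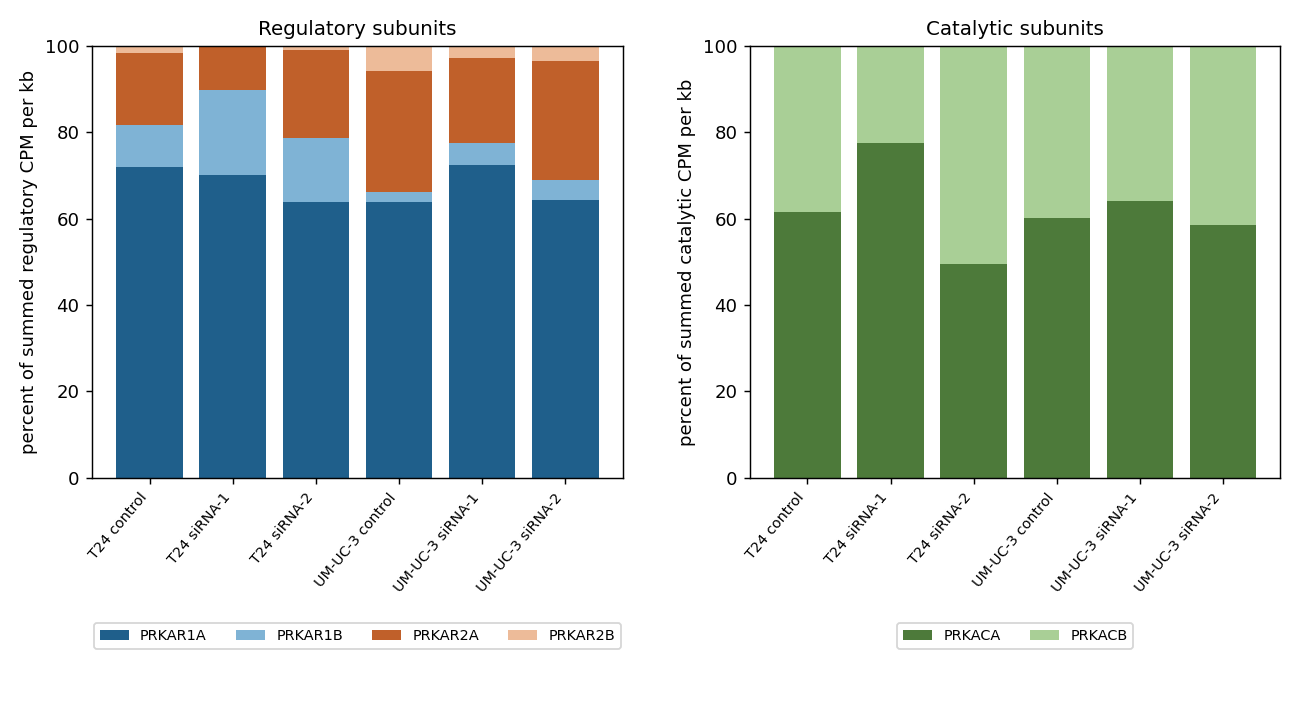
Share of the summed regulatory (left) and summed catalytic (right) subunit level, in percent of CPM per kb of exon, in each of the 6 libraries; each bar is 1 library. PRKAR1A is the widest block of every regulatory bar (63.9% to 72.3%), and the PRKAR1B block widens from 9.82% to 19.8% between the T24 control and T24 siRNA-1.

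The comparison of siRNA with control asks how the subunits stood where HSF1 RNA was lower, and its values chose the set, so the members are described here without a test. PRKAR1A and PRKAR1B were higher than the control in all 4 siRNA libraries. PRKAR2A was below its control with siRNA-1 and above it with siRNA-2 in both lines, PRKAR2B and PRKACB had their lowest values in T24 siRNA-1, and PRKACA stayed within 0.795 to 1.16 times its control. Of 13265 genes tested, 0.219% were over 2-fold higher in all 4 siRNA libraries, 18.8% were higher in all 4 by any amount and 12.2% were lower in all 4.

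PRKAR1B was read at 32.0 CPM in the T24 control (759 reads), 96.4 CPM with siRNA-1 (2665 reads) and 75.1 CPM with siRNA-2 (2010 reads). In UM-UC-3 it was read at 4.88 CPM in the control (122 reads), 13.2 CPM with siRNA-1 (360 reads) and 12.8 CPM with siRNA-2 (366 reads). Both siRNA libraries lay above the control in each line, and every T24 library lay above every UM-UC-3 library, so the UM-UC-3 siRNA libraries stayed below the T24 control. The ratios to control were 3.01 (95% counting interval 2.78 to 3.27) and 2.35 (2.16 to 2.56) in T24, and 2.70 (2.20 to 3.35) and 2.63 (2.14 to 3.26) in UM-UC-3. These intervals are exact binomial ones and cover counting error only. The log2 difference fitted over both lines by limma was 1.32 ± 0.24 (SE, 4 siRNA against 2 control libraries).

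PRKAR1A was read at 356 CPM in the T24 control, 518 CPM beside siRNA-1 and 493 CPM beside siRNA-2. In UM-UC-3 it was read at 205, 283 and 277 CPM in the same order. Again both siRNA libraries lay above the control in each line. The ratios to control were close to each other, at 1.46 (1.418 to 1.497), 1.39 (1.35 to 1.43), 1.38 (1.33 to 1.43) and 1.35 (1.31 to 1.40), and the fitted log2 difference was 0.48 ± 0.20 (SE). Of the subunits PRKAR1A was thus the nearest outside the 2-fold rule by its lowest ratio, 1.35, and the lowest ratio of PRKAR1B, inside the rule, was 2.35. The ratio of PRKAR1A to PRKAR1B per kb was 7.32 in the T24 control and 3.54 and 4.32 with the siRNAs, and 27.7 in the UM-UC-3 control and 14.1 and 14.2 with the siRNAs.

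PRKAR2A was read at 80.6 CPM in the T24 control, 71.1 beside siRNA-1 and 152 beside siRNA-2, and the UM-UC-3 libraries gave 87.5, 75.3 and 115 CPM in that order. In both lines siRNA-1 lay below the control and siRNA-2 above it. PRKAR2B was read at 4.85, 1.63 and 5.12 CPM in T24 (115, 45 and 137 reads), while UM-UC-3 gave 11.96, 6.89 and 9.82 CPM (299, 188 and 280 reads). PRKAR2B was lower than the control in 3 of 4 siRNA libraries, with a ratio of 0.336 (0.232 to 0.478) in T24 siRNA-1 and 1.06 (0.818 to 1.37) in T24 siRNA-2, where the interval includes 1. The fitted log2 differences were 0.23 ± 0.33 for PRKAR2A and -0.52 ± 0.36 for PRKAR2B (SE).

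PRKACA was read at 58.0, 65.9 and 46.1 CPM in T24 and, for UM-UC-3, at 46.0, 53.4 and 49.5 CPM. PRKACB was read at 39.6, 20.9 and 51.7 CPM in T24 and, for UM-UC-3, at 33.5, 32.8 and 38.5 CPM. For each catalytic gene the T24 siRNA libraries lay on both sides of their control, and the UM-UC-3 libraries lay within a narrower range. The lowest ratio of PRKACB was 0.528 (0.475 to 0.586) in T24 siRNA-1, whereas in UM-UC-3 siRNA-1 it was 0.978 (0.890 to 1.08). The fitted log2 differences were 0.04 ± 0.24 for PRKACA and -0.09 ± 0.35 for PRKACB (SE).

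**Figure D2:**
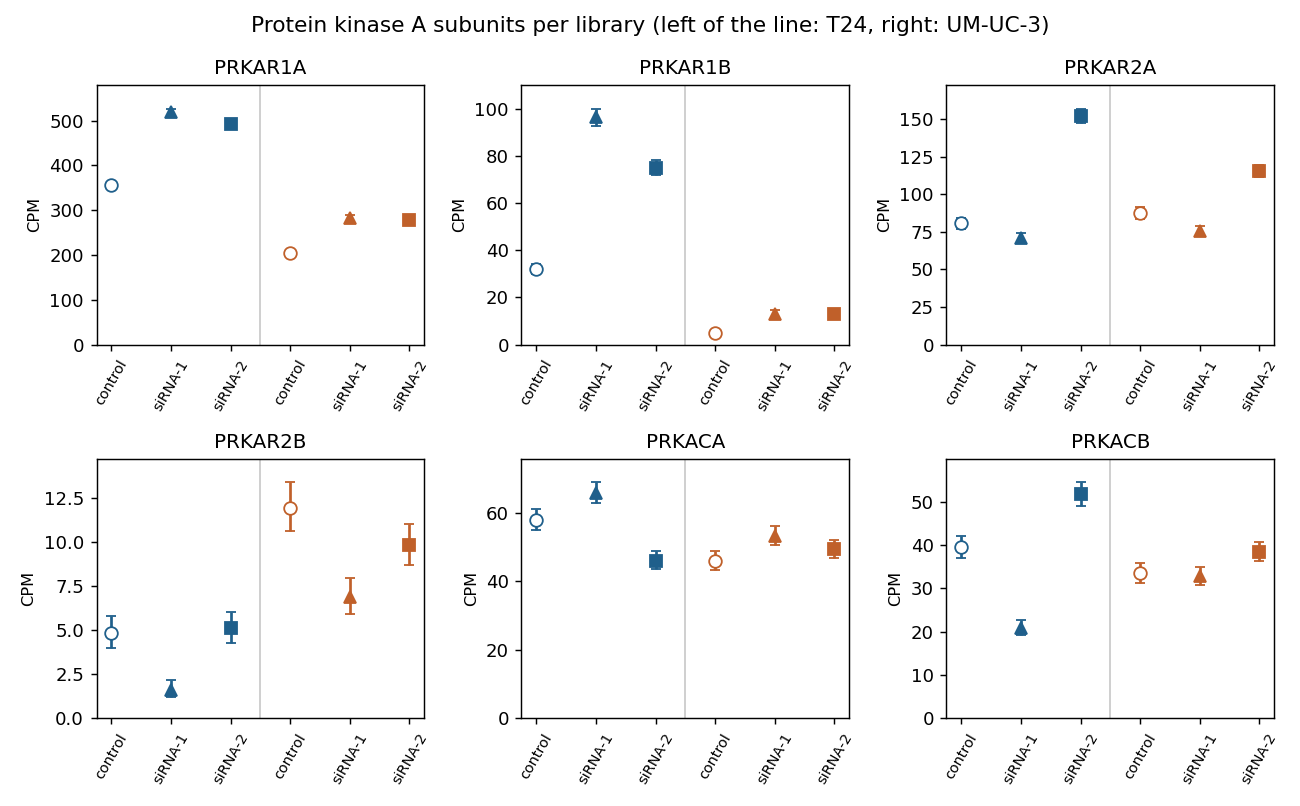
Level of each subunit in CPM (linear axis, with its own range for each subunit) in the 6 libraries, where each point is 1 library. PRKAR1B and PRKAR1A are higher in both siRNA libraries than in the control of each line, and the T24 points of PRKAR1B (32.0 to 96.4 CPM) lie above all its UM-UC-3 points (4.88 to 13.2 CPM).

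**Figure D3:**
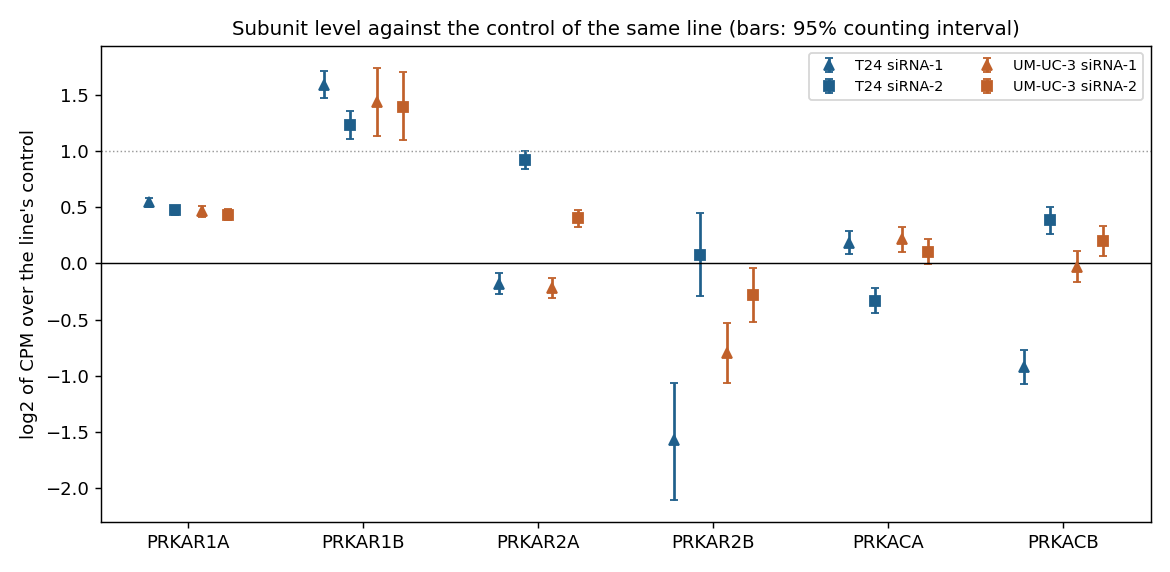
Ratio of each siRNA library to the control of its line for the 6 subunits, drawn as its log2, with 95% exact counting intervals, which leave out variation between cultures. Before the log2, the ratio of PRKAR1B lies above 2 in all 4 libraries (2.35 to 3.01), that of PRKAR1A lies at 1.35 to 1.46, and those of the other 4 subunits lie on both sides of 1.

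Reads that overlap another gene bear on these values where the counting did not use strand, and the sources used here do not give the strand setting. In GENCODE annotation DNAAF5, a dynein assembly factor on the opposite strand, shares 383 bases with PRKAR1B exons, or 8.53% of their length. DNAAF5 was read at 63.2, 63.7 and 145 CPM in T24 and, for UM-UC-3, at 84.3, 65.8 and 80.3 CPM (control, then each siRNA). Its ratio to control was 1.01 in T24 siRNA-1, where that of PRKAR1B was 3.01, and 2.30 in T24 siRNA-2, where that of PRKAR1B was 2.35. In UM-UC-3 it was 0.780 and 0.952, and the part of shared reads in the PRKAR1B values was not tested. PRKAR2A-AS1, antisense to PRKAR2A over 275 bases or 4.14% of its exon length, was higher in all 4 siRNA libraries on few reads, 12, 46 and 33 in T24 and 11, 46 and 46 in UM-UC-3. AC007780.1 shares 546 bases with PRKAR1A and was at or below 0.183 CPM throughout. PRKAR1B is known from neurons, and the neuronal marker RBFOX3 was at or below 0.380 CPM in all libraries, while SNAP25 was at or below 0.224 CPM in T24 and at 5.19 to 9.90 CPM in UM-UC-3, the line with less PRKAR1B. Of the other neuronal markers, SYP stood at 2.53 to 5.46 CPM in T24 and at 3.48 to 5.96 CPM in UM-UC-3. TUBB3 was read at 3.71, 4.67 and 6.66 CPM in T24, above its 2.20, 1.39 and 2.32 CPM in UM-UC-3, and was higher in both T24 siRNA libraries than in the T24 control. The part of neuronal genes in the PRKAR1B values was not tested.

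The genes whose pattern was most like that of PRKAR1B included MIRLET7IHG, LIMA1, C12orf76, DHRS7, ATP2A3, KDM6B and FAM222B. Likeness was the root mean square difference of log2(CPM + 1) over the 6 libraries after centring each line on its own mean, among 11854 genes with a mean of at least 50 reads and a symbol, and it ran from 0.12 to 0.17 for these genes against a median of 0.64 over all genes compared. LIMA1, an actin-binding protein, was read at 15.4, 48.7 and 40.5 CPM in T24 and, for UM-UC-3, at 80.7, 183 and 147 CPM. DHRS7, a short-chain dehydrogenase, was read at 39.9, 85.7 and 74.4 CPM in T24 and, for UM-UC-3, at 15.04, 30.2 and 36.0 CPM. KDM6B, a histone H3 demethylase, was read at 74.0, 247 and 144 CPM in T24 and, for UM-UC-3, at 17.8, 46.6 and 57.4 CPM. All 7 named genes were higher than the control in the 4 siRNA libraries, which their choice by likeness to PRKAR1B brings with it. LIMA1, unlike PRKAR1B, was higher in every UM-UC-3 library than in any T24 library. Among the other subunits PRKAR1A came nearest, at 0.41 and rank 751, and PRKAR2B was farthest, at 0.99 and rank 10956.

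**Figure D4:**
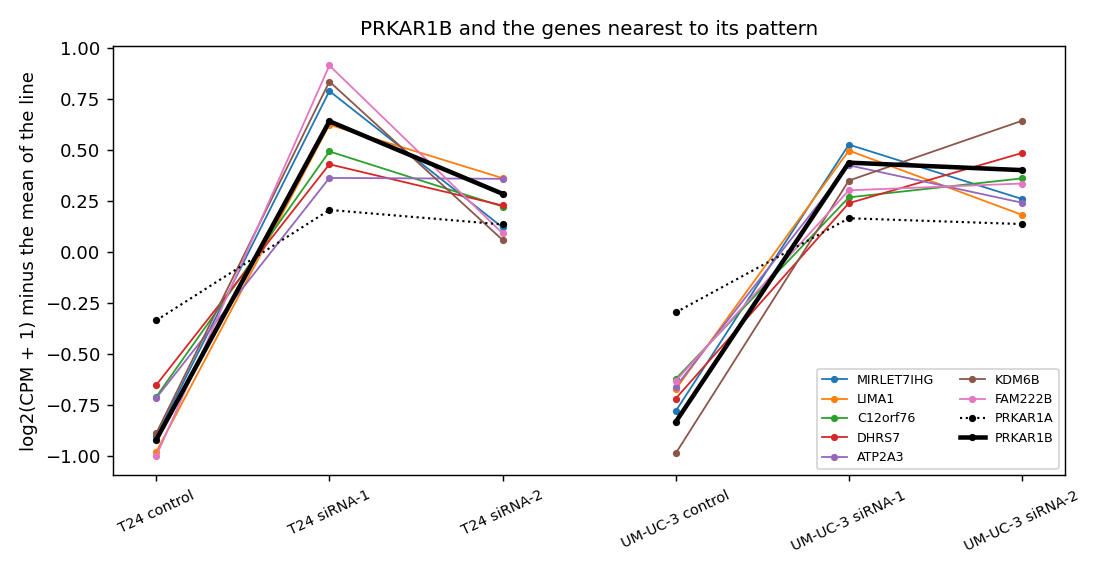
log2(CPM + 1) of PRKAR1B (thick line), of 7 genes with a pattern like it and of PRKAR1A (dotted line) in the 6 libraries, each centred on the mean of its cell line. The 7 genes were chosen for running close to PRKAR1B, with root mean square differences from PRKAR1B of 0.12 to 0.17. That each is lowest in the control of its line goes with that choice.

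PRKAR2A, PRKAR2B and PRKACB were higher with siRNA-2 than with siRNA-1 in each line, but no subunit passed the test of siRNA-2 against siRNA-1. The choice of the set did not use this contrast itself, but it used the PRKAR1B values of both siRNAs, so for PRKAR1B the test is not independent of the choice. PRKAR2A was 2.14 times as high with siRNA-2 as with siRNA-1 in T24 (2.03 to 2.26) and 1.53 times in UM-UC-3 (1.45 to 1.62). PRKAR2B was 3.15 (2.23 to 4.51) and 1.43 (1.18 to 1.72) times as high, and PRKACB 2.47 (2.24 to 2.73) and 1.17 (1.07 to 1.28) times. Of all genes tested, 28.5% were higher with siRNA-2 in both lines, and for these 3 subunits each ratio was larger in T24.

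Over both lines the log2 difference of PRKAR2A was 0.85 ± 0.27 (SE, 95% interval 0.27 to 1.43), with an adjusted p of 0.226 by limma. Those of PRKAR2B and PRKACB were 0.84 ± 0.32 (adjusted p = 0.337) and 0.75 ± 0.32 (adjusted p = 0.386) by limma. By the same test 0.279% of genes passed, so 0 of 6 subunits stood beside 37 of 13265 genes; 1609 genes and, among the subunits, PRKAR2A, PRKAR2B and PRKACB had an unadjusted p under 0.05. DESeq2 called 258 genes (1.94%) and edgeR 0. PRKACA was lower with siRNA-2 in both lines (0.700 and 0.927 times), as were 34.1% of genes, with a fitted log2 difference of -0.31 ± 0.27 (SE, 95% interval -0.90 to 0.29).

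The type I subunits differed less between the siRNAs. For PRKAR1B the choice asked for a rise over 2-fold with both siRNAs, which favours a small difference between them. The log2 difference of PRKAR1B was -0.20 ± 0.29 (SE, 95% interval -0.82 to 0.43), from a ratio of 0.779 in T24 (0.735 to 0.826) and 0.973 in UM-UC-3 (0.839 to 1.13). That of PRKAR1A was -0.05 ± 0.24 (95% interval -0.58 to 0.48), a sign that turned under TMM scaling, and its ratios were 0.952 and 0.980. Such intervals leave room for a difference of either sign in both genes.

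Between the lines, PRKAR1A and PRKAR1B were higher in T24 and PRKAR2B was higher in UM-UC-3, whereas PRKAR2A and both catalytic subunits overlapped. The contrast held treatment equal and was not used to choose the set. By limma 39.6% of genes passed (21% higher in T24 and 18.6% higher in UM-UC-3), and with DESeq2 and edgeR the shares were 43.9% and 38.5%, so 3 of 6 subunits is a share near that of all genes.

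PRKAR1B was 6.56 times as high in T24 as in UM-UC-3 in the controls (5.41 to 8.01), 7.31 times with siRNA-1 (6.54 to 8.18) and 5.85 times with siRNA-2 (5.23 to 6.56). The UM-UC-3 minus T24 log2 difference was -2.58 ± 0.23 (SE, 3 libraries per line), with an adjusted p of 4.98e-05 by limma. PRKAR1A was 1.73, 1.83 and 1.78 times as high in T24, with a log2 difference of -0.83 ± 0.18 and an adjusted p of 0.00738 by limma. For both genes all T24 libraries lay above all UM-UC-3 libraries, as for 27.1% of the genes tested. The PRKAR1A call was lost, at an adjusted p of 0.0503, without UM-UC-3 siRNA-1.

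PRKAR2B stood in T24 at 0.405, 0.236 and 0.521 times its UM-UC-3 level in the controls, with siRNA-1 and with siRNA-2. Its UM-UC-3 minus T24 log2 difference was 1.19 ± 0.34 (SE), with an adjusted p of 0.0219 by limma, and all UM-UC-3 libraries lay above all T24 libraries, as for 23.9% of genes. This call was lost without the T24 control (adjusted p = 0.0893), without the UM-UC-3 control (adjusted p = 0.08839) or without UM-UC-3 siRNA-2 (0.0748) by limma. The differences of PRKAR2A (-0.07, 95% interval -0.78 to 0.65), PRKACA (-0.18, -0.70 to 0.35) and PRKACB (-0.01, -0.76 to 0.75) did not pass, and those of PRKAR2A and PRKACB turned sign when some libraries were left out.

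The genes around the kinase were counted from 7 lists of the cyclic AMP pathway, of which 78 genes were tested. Against control over both lines 0 of 78 passed limma, where 0% of all 13265 genes passed and 1313 had an unadjusted p under 0.05; DESeq2 called 87 genes (0.656%) and edgeR 0. Within T24, within UM-UC-3 and in the difference between the lines 0 of 78 passed as well, where 0% of all genes passed in each and 1607, 404 and 622 genes had an unadjusted p under 0.05. DESeq2 called 322 (2.43%), 3 (0.0226%) and 37 (0.279%) genes in these comparisons and edgeR 0 in each. In these fits the spread between libraries included the change of siRNA, so 0 calls do not show that no gene changed. With a term for siRNA-2 against siRNA-1, limma called 847 genes within T24, 12 within UM-UC-3, 119 for the difference and 0 over both lines. The values below for siRNA against control are therefore descriptions.

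Of 19 anchoring proteins tested, 16 had a positive and 3 a negative log2 difference (median 0.17, all genes 0.06 with 56.9% positive). Among the 19, 6 were higher in all 4 siRNA libraries, as were 18.8% of all genes. NBEA, a vesicle traffic protein that binds type II subunits, was read at 18.0, 33.5 and 26.6 CPM in T24 and, for UM-UC-3, at 4.52, 5.94 and 8.70 CPM (0.64 ± 0.27, SE). AKAP6, which anchors the kinase at the nuclear envelope of muscle cells, stood at 0.70 ± 0.30 on the log2 scale. It had 14 to 81 reads per library and lay at 0.965 times its control in T24 siRNA-2, and above its control in the other siRNA libraries. ACBD3, a Golgi protein that binds PRKAR1A, stood at 0.49 ± 0.34. Its ratios to control were 2.34 and 1.01 in T24 and 1.46 and 1.15 in UM-UC-3 (siRNA-1, then siRNA-2). Of 6 inhibitors, related kinases and turnover genes, 5 were positive (median 0.16). Among them the log2 difference was 0.38 ± 0.33 for PJA2, a ubiquitin ligase of regulatory subunits, 0.30 ± 0.21 for the phosphatase subunit PPP2R5D and -0.27 ± 0.24 for GPR161, a ciliary receptor that anchors the kinase.

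Of 16 cyclases, G proteins and receptors, 7 were positive and 9 negative (median -0.16). Within T24 6 were positive and 10 negative (median -0.15), and within UM-UC-3 10 were positive and 6 negative (median 0.09). ADRB1, an adrenaline receptor that activates adenylyl cyclase, was read at 2.07, 7.64 and 6.80 CPM in T24 and, for UM-UC-3, at 0.680, 1.17 and 1.23 CPM, higher in all 4 siRNA libraries (0.90 ± 0.28, SE, adjusted p = 0.424 by limma). ADCY9, an adenylyl cyclase, stood at 0.57 ± 0.24 on the log2 scale.

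Of 10 phosphodiesterases, which break down cyclic AMP, 3 were positive and 7 negative (median -0.14), with PDE2A at -0.42 ± 0.26, PDE4A at -0.42 ± 0.24 and PDE4D at -0.67 ± 0.43 (log2 difference, SE). The lines differed here: within T24 1 was positive and 9 negative (median -0.39, all genes 0.07). Within UM-UC-3 8 were positive and 2 negative (median 0.08, all genes 0.04). Of 4 other effectors, 1 was positive and 3 negative, and 3 (against 12.2% of all genes) were lower in all 4 siRNA libraries: RAPGEF3, POPDC3 and HCN3. RAPGEF3, the cyclic AMP-activated exchange factor EPAC, was read at 16.7, 11.04 and 7.55 CPM in T24 and, for UM-UC-3, at 13.0, 7.22 and 4.32 CPM (-0.94 ± 0.29, adjusted p = 0.424 by limma). POPDC3 and HCN3 stood at -0.27 ± 0.24 and -0.47 ± 0.27.

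Of 11 CREB factors and coactivators, the transcription factors that the kinase phosphorylates and their partners, 3 were positive and 8 negative (median -0.18), with CREM at -0.35 ± 0.27 and CREBBP at -0.46 ± 0.41 on the log2 scale. Within T24 3 were positive and 8 negative (median -0.27), and within UM-UC-3 8 were positive and 3 negative (median 0.08). CREBBP stood at 0.319 and 0.849 times its control in T24 and at 0.805 and 1.26 times in UM-UC-3 (siRNA-1, then siRNA-2). Of 14 CREB target genes, which share CREM and SIK1 with that list, 3 were positive and 11 negative (median -0.43), and the median was -1.003 within T24 and 0.15 within UM-UC-3. SIK1, a kinase induced by CREB that holds back its coactivators, stood at 0.94 ± 0.35. FOS, an immediate early gene, was read at 212 CPM in the T24 control against 11.3 and 5.12 CPM beside the siRNAs, and its UM-UC-3 values were 2.400, 4.398 and 2.105 CPM. The T24 control alone was high, and without it the log2 difference of FOS turned from -2.18 to 0.27 and that of NR4A1, a nuclear receptor, from -0.76 to 0.024. Between the siRNAs 1 of 78 genes passed, against 0.279% of all genes. It was NR4A3, another such receptor, which was lower with siRNA-2 (-1.98 ± 0.35, adjusted p = 0.0454 by limma). This call held in 6 of 12 other settings and was lost without T24 siRNA-2 (adjusted p = 0.485 by limma).

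Between the lines 34 of 78 pathway genes passed, or 43.6% against 39.6% of all genes, 18 higher in T24 and 16 higher in UM-UC-3. Of 10 phosphodiesterases 6 were higher in UM-UC-3 and 0 in T24 (median log2 difference 1.34, all genes -0.04). Of all genes, 18.6% passed as higher in UM-UC-3 and 21% as higher in T24. PDE3B, which cyclic GMP inhibits, was read at 34.4, 27.9 and 46.5 CPM in UM-UC-3 and at 0.548, 0.0724 and 0.523 CPM in T24, and its log2 difference was 4.74 ± 0.28 (SE, adjusted p = 5.76e-06 by limma). PDE1A, the calmodulin-activated form, stood at 17.9 to 29.9 CPM in UM-UC-3 and at no more than 0.0422 CPM in T24. PDE2A, PDE4A, PDE4B and PDE10A were the other 4, and the PDE10A call held in 6 of 13 other settings.

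CREB targets lay the other way, with 9 of 14 higher in T24 (21% of all genes) and 0 in UM-UC-3 (18.6% of all genes). Their median log2 difference was -1.65. ATF3, a stress-induced factor, was read at 152, 65.1 and 53.1 CPM in T24 and, for UM-UC-3, at 3.001, 3.92 and 2.77 CPM (-4.28 ± 0.33, adjusted p = 2.42e-05 by limma). The others were FOS, FOSB, JUNB, NR4A1, NR4A2, IER2, RGS2 and CREM, and the FOS call held in 9 of 13 other settings and was lost without either control. AKAP12, a scaffold for the kinase, was read at 603, 551 and 1016 CPM in T24 and, for UM-UC-3, at 161, 157 and 215 CPM (-1.98 ± 0.27, adjusted p = 0.000565 by limma). NBEA (-1.87 ± 0.25) and ACBD3 (-1.60 ± 0.32) were also higher in T24, as were AKAP9 and GSKIP, and 2 of 19 anchoring proteins, AKAP11 and WASF1, were higher in UM-UC-3. Among cyclases, G proteins and receptors, GNAL, the olfactory G protein, stood 3.08 ± 0.23 higher in UM-UC-3 on the log2 scale and ADRB1 was higher in T24 (-1.56 ± 0.27), with GNAI1, ADCY5, PTGER4 and CAP2 the others higher in UM-UC-3. POPDC3, a cyclic AMP-binding membrane protein, stood 2.70 ± 0.23 higher in UM-UC-3. GPR161, CRTC2 and EP300 were higher in T24 and SIK2 and SIK3 in UM-UC-3. In all, 20 of the 34 calls held in each of 13 other settings.

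**Figure D5:**
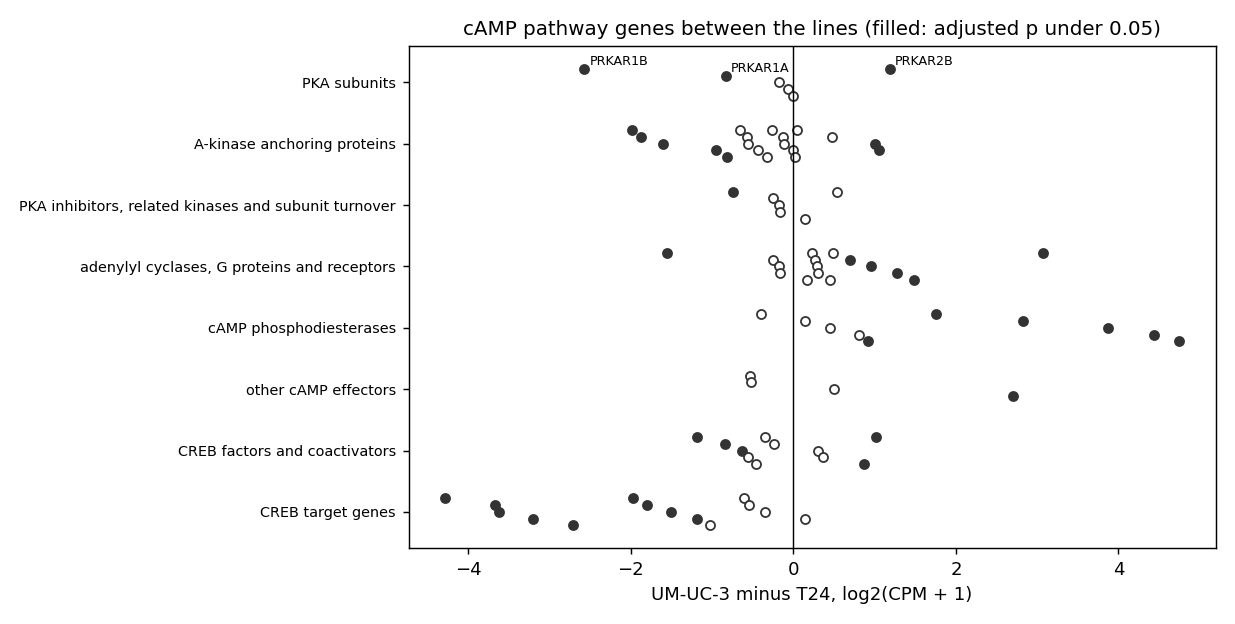
Difference between the lines (UM-UC-3 minus T24, log2(CPM + 1)) for the 6 subunits and the tested genes of the 7 pathway lists; each point is 1 gene, filled where limma's adjusted p was under 0.05. PRKAR1B lies at -2.58, PRKAR1A at -0.83 and PRKAR2B at 1.19, filled phosphodiesterases lie only to the right of 0 and filled CREB targets only to the left.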

How the data were processed

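RNA sequencing data of 6 libraries were used. Per the submitters' processing notes bcl2fastq 2.19.1, HISAT2 2.1.0, HTSeq 0.6.1, hg19 and GRCh37 were used, in roles that are not stated. The deposited values were CPM, per the file headers and the values: 100% were whole multiples of 1 read (tolerance 0.01; 0.5 read stood for 0), so reads were recovered. A gene missing from the values of 1 library but listed for another library of its line was set to 0 there. Such a gene was taken to have at most 4 reads in that library, which is an assumption.

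limma 3.58.1 (R 4.3.3, limma-trend) was run on log2(CPM + 1), which understates the change of low genes, for 13265 genes averaging 1 CPM or more, with Benjamini-Hochberg adjustment over all of them and a threshold of 0.05. All 6 libraries entered each fit, with the cell line as a covariate, with treatment for the line contrast, or as 4 group means. Alternatives were edgeR 4.0.16 and DESeq2 1.42.0 on the recovered reads, pseudocounts of 0.5 and 0.1, no filter, TMM scaling, a replicate block and each library left out. The fits were tested on simulated data. Exon lengths and overlaps came from GENCODE 29, on another build than the notes name, matched by identifier, and promoters from RefSeq GRCh38.p14, matched by symbol for 6 of 6 genes. Levels per kb divide CPM by union exon length.

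The members and lists were chosen with earlier results of these data known. Named genes were the 6 subunits, HSF1, 3 tested genes per list with the smallest p over both lines, any list gene past a threshold, the 8 genes most like PRKAR1B, and genes overlapping a subunit; some of these are not reported here. Other cell type markers were read as a check of identity: CD14 was at or below 0.506 CPM, VWF at or below 0.320, CDH5 at or below 0.187, PECAM1 at or below 4.08 and COL1A1 at or below 12.3 CPM. Of the mesenchymal markers, VIM stood at 96.9 to 874 CPM and CDH2 at 30.9 to 77.4 CPM. Of the remaining epithelial and urothelial markers, KRT7 stood at 0.702 to 7.63, KRT18 at 186 to 335 and PPARG at 1.36 to 16.1 CPM, with GATA3 at or below 1.16 and TP63 at or below 0.281 CPM. PTPRC and LUM were listed for T24 alone, at or below 0.224 CPM, and CD3E and DCN for neither line.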

Additional observations from a re-analysis of the deposited data

How the results depend on the processing

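The PRKAR1B line difference passed in all 13 alternatives (adjusted p up to 0.00131 by limma), that of PRKAR1A in 12 and that of PRKAR2B in 10. No subunit passed between the siRNAs in any of 12 alternatives, with a lowest adjusted p of 0.0552 for PRKAR2A by any tool. With DESeq2 the counts of genes called were 87 over both lines, 322 within T24, 3 within UM-UC-3, 37 for the difference and 258 between the siRNAs. Without the filter they were 2 within T24 and 0 between the siRNAs, where edgeR and TMM-scaled CPM also gave 0. The siRNA number names the reagent, and the siRNA-1 minus siRNA-2 differences correlated between the lines at 0.417 across genes; with it as a replicate block, a term for siRNA-2 against siRNA-1 that is 0 for the controls, the counts were 847 within T24, 12 within UM-UC-3, 119 for the difference, 0 over both lines and 6080 between the lines.

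With 1 library left out the count within T24 ran from 0 to 447 (75 without T24 siRNA-1, 447 without T24 siRNA-2). Between the siRNAs it ran from 0 without T24 siRNA-2 to 485 without the T24 control, with 21, 465, 476 and 87 without T24 siRNA-1, the UM-UC-3 control, UM-UC-3 siRNA-1 and UM-UC-3 siRNA-2. Between the lines it ran from 3563 to 5403. The PRKAR1A difference between the siRNAs turned to 0.0041 with edgeR and 0.0039 with DESeq2 or TMM-scaled CPM. The PRKACB line difference turned to 0.047 with TMM-scaled CPM and ran from -0.40 to 0.32 with 1 library left out, being 0.10 without either control, 0.32 without T24 siRNA-2 and 0.02 without UM-UC-3 siRNA-1. That of PRKAR2A ran from -0.35 to 0.27, turning without T24 siRNA-2 and, to 0.13, without UM-UC-3 siRNA-1. Against control, PJA2 ran from -0.12 without the UM-UC-3 control to 0.88, and 4 genes ran from their lowest without the UM-UC-3 control to a positive value without the T24 control: PDE4D from -1.39 to 0.055, CREBBP from -0.94 to 0.011, NR4A1 from -1.55 to 0.024 and FOS from -4.62 to 0.27. The causes were not tested.

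With the longest transcript as the length, the type I share was 87.3%, 93.2% and 85.2% in T24 and 74.7%, 84.0% and 77.2% in UM-UC-3 (control, siRNA-1, siRNA-2), and regulatory over catalytic RNA was 3.96, 6.54 and 6.40 in T24 and 2.97, 3.44 and 3.66 in UM-UC-3. Fits within a line without its only control were not run. At 45 reads, the lowest PRKAR2B count, the counting interval of its ratio to control spans 0.232 to 0.478, and variation between cultures is not covered.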
